A study of Mus musculus with 192 samples.

Results

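Amylin and insulin messages in the brain of triprolyl-human amylin transgenic mice were described with 3 genes of the nCounter panel, Iapp, Ins1 and Ins2, chosen by name out of 43 target genes. Iapp encodes amylin, and Ins1 and Ins2 encode the 2 insulins of the mouse. RNA was taken from 4 brain regions in male mice of an FVB/n line, called L44 here as by its makers, that carries human amylin with 3 proline substitutions under the rat insulin 2 promoter. The groups were nontransgenic (NON), hemizygous (HEM) and homozygous (HOM) mice, all from crosses of hemizygous parents, so that the NON controls too had parents with the transgene. T1 was 100 days of age. T2 was the onset of diabetes, with NON mice matched by age to HEM or HOM mice. The main T2 comparisons set each genotype against all NON pools of its collection time, also those matched to the other genotype. Labelled ages at T2 ran from 90 to 286 days over the 3 genotypes, the highest in a NON mouse. T3 was 400 days, with pools of previously diabetic and of never diabetic mice in all 3 genotypes. Mice were killed in the morning (AM) or the afternoon (PM). A pool held equal amounts of RNA from 1 mouse (43 pools) or 2 mice (149 pools) of the same genotype and collection time, and is named by its mouse numbers, so that pool 2/7 joined mice 2 and 7. All 3 genes had a count in each of 192 pools, of which 46 were from the hindbrain with the cerebellum, 49 from the midbrain with the forebrain and hypothalamus, 48 from the left cortex and 49 from the right cortex. For 12 HEM pools of T1, 3 in each region, the labels give no collection time, and those pools were left out of comparisons within a collection time. They entered the shares of pools above background, the medians, ranges and ranks over all pools, and the descriptions of single pools. They also entered a comparison of all T1 pools in each region, named below.

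Amylin is stored and released together with insulin by the beta cells of the pancreatic islet, and both hormones reach the brain from the blood. Amylin acts there through the calcitonin receptor (Calcr) paired with a receptor activity modifying protein (Ramp1, Ramp2 or Ramp3), mainly in the hindbrain and hypothalamus, where it reduces feeding, and insulin acts through its receptor (Insr) and a cascade of kinases. Small amounts of amylin and insulin mRNA have been reported in nerve cells, the hypothalamus being the usual site named. The probes carry the names of the mouse genes. Whether they also recognise mRNA of the human amylin transgene was not tested, and the panel has no other gene that marks a beta cell.

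The stretches of DNA upstream of Iapp and Ins1 are shown because counts of these genes were high in the same hindbrain pools. They are the 250 bases before the RefSeq gene start in GRCm38.p6, both on the plus strand, at chr6:142298175-142298424 for Iapp and chr19:52264047-52264296 for Ins1. Capitals mark TAAT, the core letters bound by homeodomain factors such as PDX1, and CATCTG, an E box, each on either strand, and copies of TAAT may overlap. Both motifs were chosen after the sequences were read.
Iapp: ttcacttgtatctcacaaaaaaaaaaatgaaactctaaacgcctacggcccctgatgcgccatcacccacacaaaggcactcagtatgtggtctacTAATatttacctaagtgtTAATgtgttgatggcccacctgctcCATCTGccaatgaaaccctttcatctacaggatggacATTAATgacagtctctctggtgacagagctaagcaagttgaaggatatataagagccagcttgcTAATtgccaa
Ins1: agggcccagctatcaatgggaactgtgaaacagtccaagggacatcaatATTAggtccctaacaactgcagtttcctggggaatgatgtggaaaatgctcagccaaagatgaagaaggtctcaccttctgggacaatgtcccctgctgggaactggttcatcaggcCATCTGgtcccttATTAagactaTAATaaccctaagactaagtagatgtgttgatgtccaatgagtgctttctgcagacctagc
TAAT was found 5 times upstream of Iapp and 3 times upstream of Ins1, and CATCTG once upstream of each. The same 250 bases held TAAT in 54.9% and CATCTG in 14.4% of the 32851 promoters in the table. The matches are letters in a window and were not measured as sites.

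All 3 genes were at the lower end of what the assay could count. Background was taken in each pool as the mean plus 2 SD of its 8 negative control probes, which have no target in the mouse, and a gene was called above background when its count passed that level. The median background was 15.5 counts for hindbrain pools, 21.5 for midbrain pools, 22.3 for left and 28.7 for right cortex pools. Median counts of Iapp, in the same order of regions, were 15.5, 25, 15.5 and 20. For Ins1 they were 15, 21, 14 and 16, and for Ins2 18, 32, 12 and 18. In both the hindbrain and the midbrain these were the 3 target genes above background in the fewest pools. By contrast, 29 target genes in the hindbrain and 40 in the midbrain were above background in all pools, Insr among them.

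**Figure D1:**
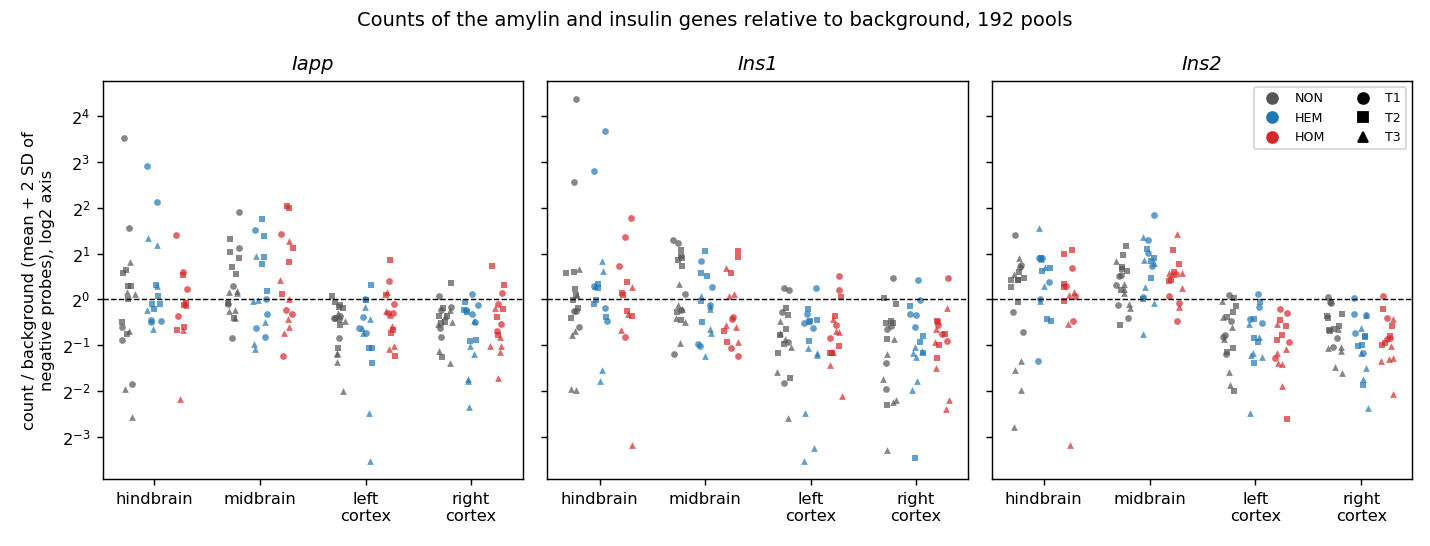
Count of Iapp, Ins1 and Ins2 in each of 192 pools divided by that pool's background (vertical log2 axis; the dashed line at 1 is background), by region, with colours for genotype and shapes for time point. Most points lie within 2-fold of the line, the midbrain and hindbrain lie higher than the cortices, and a few T1 hindbrain pools of Iapp and Ins1 stand far above, the highest at 20.7 times background.

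Iapp was above background in 21 of 46 hindbrain pools (45.7%) and 28 of 49 midbrain pools (57.1%), but in 7 of 48 left cortex pools (14.6%) and 6 of 49 right cortex pools (12.2%). Ins1 passed it in 23 of 46 hindbrain pools (50%), 21 of 49 midbrain pools (42.9%), 6 of 48 left cortex pools (12.5%) and 4 of 49 right cortex pools (8.16%). Ins2 was found most often in the deep regions and least often in the cortices, in 31 of 46 hindbrain pools (67.4%) and 39 of 49 midbrain pools (79.6%), against 3 of 48 left cortex pools (6.25%) and 3 of 49 right cortex pools (6.12%). The negative control probes give the share that this limit lets through without a target. Each of them, set against the other 7, passed in 7.61% of cases among hindbrain pools, 8.67% among midbrain pools, 7.29% among left and 9.18% among right cortex pools. The shares differed between probes, the lowest being 0% in each region, and the highest single probe passed in 21.7% of hindbrain pools, 51.0% of midbrain pools, 39.6% of left and 53.1% of right cortex pools. Ins1 in the midbrain, at 42.9%, was below that highest probe. In the cortices the 3 genes had shares near that of all control probes together and were read as background, except that Iapp and Ins1 in the left cortex were somewhat above that share.

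Hindbrain, midbrain and cortices of the same mice were compared pool by pool at T1 and T2, where the pool numbers match between regions, with an exact two-sided McNemar test adjusted over 18 tests. Of the 18, 10 had an adjusted p under 0.05, and each of those 10 set a deep region against a cortex. The limit itself differed by region, with a median background of 15.5 counts in hindbrain and 28.7 in right cortex pools. For none of the 3 genes was the median raw count given above higher in the hindbrain than in the right cortex. More message in the hindbrain can therefore not be read from this test alone. With background taken as the mean of the negative probes alone, 0 of the 18 passed. With the mean plus 3 SD, hindbrain against right cortex lost its call for Iapp and for Ins1 (adjusted p = 0.0579 for each, exact McNemar test). At that limit Iapp passed in hindbrain against left cortex (adjusted p = 0.0229, exact McNemar test). Ins1 then passed in midbrain against left cortex (adjusted p = 0.00251, exact McNemar test). Ins2 was above background in the midbrain alone in 24 pools and in the right cortex alone in 1 of 31 (adjusted p = 1.14e-05, exact McNemar test). It was above background in the hindbrain alone in 20 pools and in the left cortex alone in 0 of 30 (adjusted p = 1.14e-05, exact McNemar test). For Iapp the midbrain alone passed in 16 pools and the left cortex alone in 2 of 30 (adjusted p = 0.00447, exact McNemar test), whereas hindbrain against left cortex did not pass the test, at 13 and 4 pools (adjusted p = 0.0736, exact McNemar test). For Ins1 the hindbrain alone passed in 15 pools and the right cortex alone in 2 of 31 (adjusted p = 0.00604, exact McNemar test), and midbrain against left cortex did not pass the test, at 15 and 5 of 30 pools (adjusted p = 0.0677, exact McNemar test). No difference between hindbrain and midbrain passed this test, with an adjusted p of 0.329 for Iapp, 1 for Ins1 and 0.653 for Ins2.

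**Figure D2:**
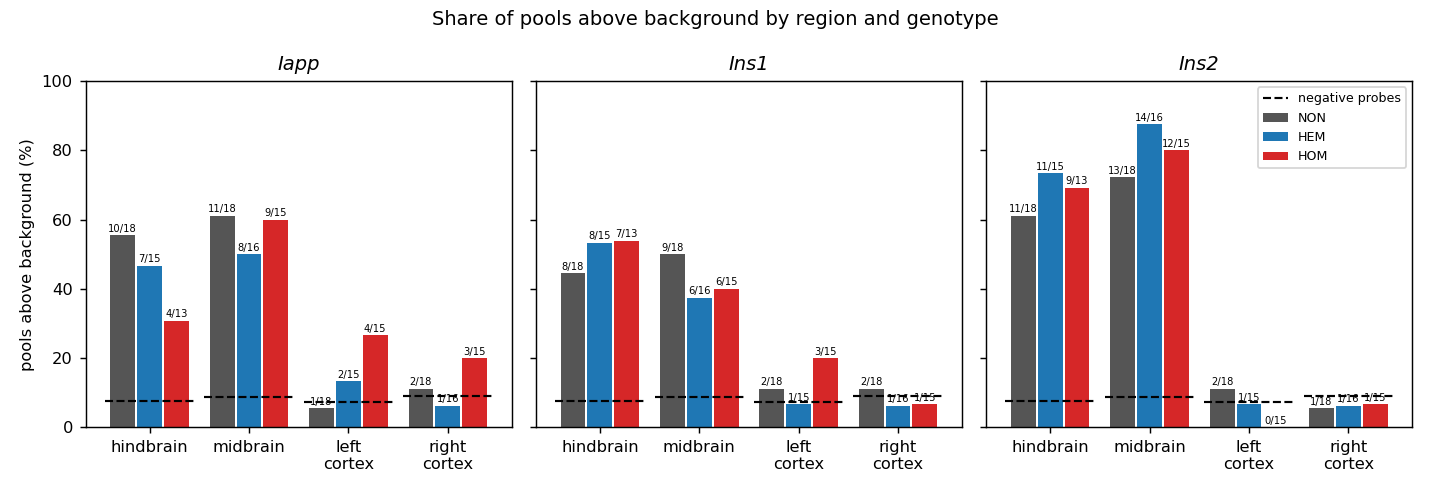
Share of pools above background (vertical axis, percent) for each gene by region, with bars for NON, HEM and HOM, the number of pools over each bar, and a dashed line for the share among the negative control probes. Bars of the hindbrain and midbrain stand above the dashed line for all genotypes, and most bars of the cortices lie near it.

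To compare levels, counts were divided by the geometric mean of the 3 reference genes of the pool and scaled to the average of that mean over all pools, which is called the normalised count. In NON mice, the negative control probes scaled in the same way had a median of 9.6 normalised counts for hindbrain, 11.1 for midbrain, 12.0 for left and 12.2 for right cortex pools, and the levels below include this signal without a target. All NON pools were fitted in 1 edgeR model, and regions were compared over 6 sets of time point and collection time with equal weight. Since the dissected regions differ in most genes, the share of target genes called at an adjusted p under 0.05 is given beside each contrast: 81.4% for midbrain minus cortices, 83.7% for hindbrain minus cortices, 90.7% for midbrain minus hindbrain and 6.98% for right minus left cortex. All 3 genes were called in the first 2 contrasts, where most target genes were, 1 in the third and 0 in the last. Fewer cells with the message and less message per cell cannot be told apart in such tissue.

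Ins2 was the steadiest of the 3. In NON midbrain it had 28.7 ± 6.61 normalised counts (SD, n = 18), with a range of 17.7 to 41.8, against 14.8 ± 5.52 for left and 15.8 ± 3.70 for right cortex pools (n = 18 each). The highest NON values in the cortices, 24.6 on the left and 22.7 on the right, overlapped the lower midbrain values. The log2 fold-change from cortices to midbrain was 0.91 ± 0.11 (SE), with an adjusted p of 3.18e-10 in edgeR. For hindbrain minus cortices it was 0.58 ± 0.14 (adjusted p = 0.000114), a value that turned to -0.12 when counts were scaled by the positive control probes. Midbrain exceeded hindbrain by 0.32 ± 0.14 (adjusted p = 0.0301), and this call was lost with TMM scaling (0.049, adjusted p = 0.770) and when any of 5 single pools was left out.

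Iapp in NON mice reached 31.9 ± 20.1 normalised counts in the midbrain (n = 18), against 15.7 ± 4.77 for left and 18.4 ± 4.19 for right cortex pools. The log2 fold-change of midbrain minus cortices was 0.79 ± 0.24 (adjusted p = 0.0029). Hindbrain minus cortices was 1.01 ± 0.28 (adjusted p = 0.001), but without T1 NON AM pool 2/7 it was 0.39 with an adjusted p of 0.169, and without T3 NON AM pool 7, a pool with a reference gene mean of only 267, it was 0.62 with an adjusted p of 0.0599. With the pool number as a block and T1 and T2 pools alone it was 0.66 (adjusted p = 0.0763), and with the positive control probes as the scale 0.16 (adjusted p = 0.538).

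Ins1 had 27.8 ± 12.4 normalised counts in NON midbrain, 13.6 ± 4.71 for left and 12.7 ± 5.85 for right cortex pools (n = 18 each). The log2 fold-change was 1.05 ± 0.28 for midbrain minus cortices (adjusted p = 0.000555) and 1.51 ± 0.34 for hindbrain minus cortices (adjusted p = 5.96e-05). The second of these was 0.87 without T1 NON AM pool 2/7, still with an adjusted p of 0.00821. For neither Iapp nor Ins1 was midbrain against hindbrain called, and the sign of both differences, -0.22 ± 0.30 for Iapp and -0.46 ± 0.34 for Ins1, turned when pool 2/7 was left out. No difference between right and left cortex passed the test.

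Hypothalamic messages served as a check of the dissection. Mch, the gene of melanin-concentrating hormone, had a median of 23024 normalised counts in the midbrain against 138 in the hindbrain and 95.3 and 104 in the cortices, and Hcrt, the gene of orexin, had 763 against 25.2, 26.7 and 27.7. The lowest midbrain value of Hcrt, 427, was above the highest of any other region, 146. The other hypothalamic messages checked separated the midbrain from the hindbrain less clearly. Hdc, which makes histamine, had medians of 249 in the midbrain and 232 in the hindbrain. Agrp and Pomc, of the feeding circuits, had higher medians in the midbrain (105 against 37.9 and 304 against 117), but their highest hindbrain values, 420 and 1060, were above the highest midbrain values, 174 and 778. Cart, also of those circuits, had medians of 4800 and 2073, with ranges that overlapped.

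The largest counts of Ins1, and the top counts of Iapp, 153 and 139, came from T1 hindbrain pools, where both genes were high together. Counts of Ins2 were largest in the midbrain, at up to 50 in T3 NON AM. NON AM pool 2/7 had 153 counts of Iapp and 274 of Ins1 over a background of 13.2, and HEM pool 5/6, without a labelled collection time, had 139 and 237 over 18.5. HEM pool 1/2, also without a labelled time, had 52 and 82 over 11.8. NON PM pool 6 had 42 and 85, HOM AM pool 3/4 had 44 and 57, and HOM AM pool 6/7 had 33 and 56. High pools thus occurred in all 3 genotypes. The other 8 T1 hindbrain pools had 2 to 22 counts of Iapp and 2 to 31 of Ins1. Ins2 did not share the pattern, with 11 counts in pool 2/7 (under its background), 24 in pool 5/6 and 22 in pool 1/2, against 6 to 33 counts over all T1 hindbrain pools. Ins1 exceeded Iapp in each of the 6 pools named here, and Ins2 was lower than both.

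Ranked over all 46 hindbrain pools, normalised Ins1 followed Iapp more closely than any other gene (Spearman rho = 0.75), and the rho of counts within a time point was 0.89 at T1 (14 pools), 0.67 at T2 (17 pools) and 0.88 at T3 (15 pools). These values describe pools whose genes share the depth of the pool, and carry no test. Next to Ins1 came Socs3 (rho = 0.51) for Iapp, and Hcrt (rho = 0.59) and Socs3 (rho = 0.58) for Ins1. Normalised Ins2 had a rho of 0.13 with Iapp and 0.19 with Ins1 over the same pools, though its counts followed those of Iapp at T3 (rho = 0.72), when the reference gene mean ran from 130.5 to 6851. In the midbrain the rho of Iapp and Ins1 counts was 0.48 at T1, 0.09 at T2 and 0.54 at T3, and the genes most like Iapp over all 49 pools were Arrb2 (rho = 0.55), which encodes a beta-arrestin, and Npy (rho = 0.55), which encodes neuropeptide Y. Over all 192 pools no gene reached a rho of 0.5 with Iapp. Ins1 was nearest to Hdc, the gene of histidine decarboxylase (rho = 0.54), and Agrp (rho = 0.51), and Ins2 to Calcr-1b (rho = 0.71), Calcr-1a (rho = 0.71) and Calcr (rho = 0.69), all of which differ between regions.

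**Figure D3:**
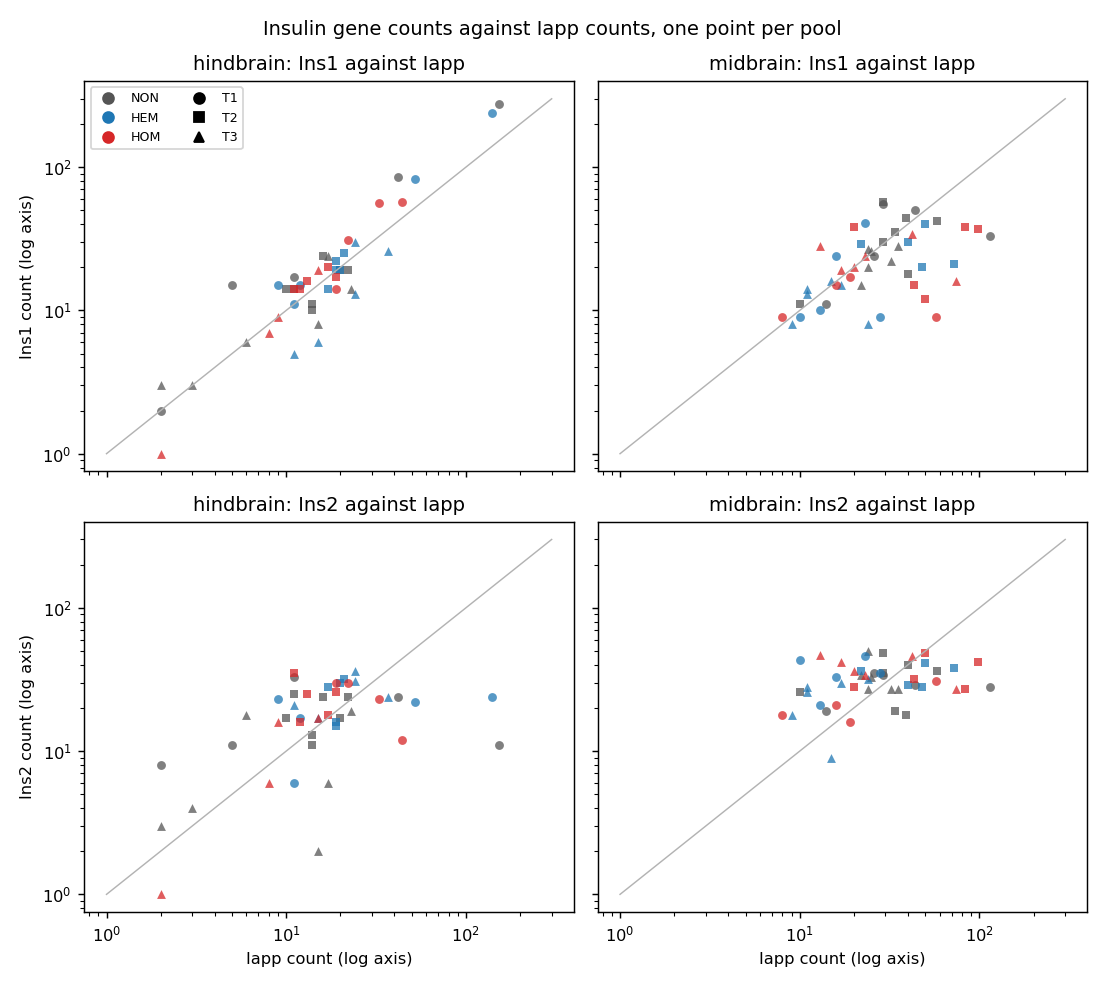
Counts of Ins1 (top) and Ins2 (bottom) against counts of Iapp in hindbrain pools (left) and midbrain pools (right), on log axes, with a line where both counts are equal. In the hindbrain, Ins1 runs along the line and the T1 pools with 139 and 153 counts of Iapp have 237 and 274 of Ins1, whereas Ins2 stays at 36 counts or fewer.

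Other genes were high in the same hindbrain pools. In the 3 T1 hindbrain pools with the highest Ins1 counts (NON AM 2/7, HEM 5/6 and NON PM 6), the median normalised count was 12.9 times that of the other 11 for Ins1, which chose the pools, and 11.2 times for Iapp. Next came Agrp, the gene of agouti-related peptide made in the hypothalamic arcuate nucleus (5.65 times), Hcrt (4.71 times) and Socs3, a feedback inhibitor of cytokine signalling (2.84 times). Agrp had 192 counts in pool 2/7, 175 in pool 5/6 and 66 in pool 6, and Hcrt had 93, 119 and 50. Mch, far stronger than these in the midbrain, had 212, 207 and 156 counts in the same pools, within the 72 to 497 counts of all T1 hindbrain pools (1.67 times), and the ratio was 1.06 for Pomc, the gene of pro-opiomelanocortin, and 1.28 for Ins2. HEM pool 1/2 counted among the other 11, since its raw Ins1 count was lower than that of pool 6, though its 149 normalised counts of Ins1 were above the 95.3 of pool 6, and its 178 normalised counts of Agrp above the 74.0 of pool 6. Genes and pools of this paragraph were picked after their values were seen, and the part of hypothalamic tissue or of any other source in these counts was not tested.

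High Iapp in the midbrain had another form. Here 4 pools exceeded 3 times their background, namely NON PM pool 4/5 of T1 with 114 counts, HOM PM pools 4/8 and 6/9 of T2 with 98 and 83, and HEM AM pool 4/6 of T2 with 72. Ins1 in these pools was 33, 37, 38 and 21, and Ins2 was 28, 42, 27 and 38. At T2, Iapp was above background in 15 of 17 midbrain pools (88.2%), and the 2 below it were the NON AM pools. At T1 the share was 6 of 14 (42.9%) and at T3 7 of 18 (38.9%). Ins1 followed the same order in the midbrain, with 5 of 14 at T1, 11 of 17 at T2 and 5 of 18 at T3, and Ins2 was above background in 10 of 14, 16 of 17 and 13 of 18. In the right cortex at T3 no pool of any of the 3 genes was above background, in a set whose reference genes had a median of 3569 against 8543 at T2.

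The genotype comparisons asked whether the transgene altered these messages at each stage of the disease. Each transgenic genotype was set against NON within a region, time point and collection time in 39 comparisons, and 4.71% of all gene results were called at an adjusted p under 0.05. In models of all pools of a region with a collection time, edgeR called none of the 117 results of Iapp, Ins1 and Ins2. Of these, 8 had an unadjusted p under 0.05, which was not read as a result. DESeq2 called 1, Iapp in the T3 hindbrain of HEM AM, a comparison whose edgeR value turned to 0.39 without NON AM pool 7. Differences ran in both directions, with 14 higher and 25 lower for Iapp, 13 and 26 for Ins1 and 18 and 21 for Ins2. The median log2 fold-change was -0.14 for Iapp, -0.26 for Ins1 and -0.02 for Ins2. Over all times, 10.8% of gene results were called and 0 of the 24 of these genes in edgeR, none of them at an unadjusted p under 0.05, against 4 by DESeq2 before adjustment and 0 after it. The smallest adjusted p over all times were 0.222 for Iapp in the right cortex of HEM (-0.36 ± 0.18, edgeR), 0.253 for Ins1 in the hindbrain of HOM (-0.78 ± 0.45, edgeR) and 0.209 for Ins2 in the left cortex of HOM (-0.44 ± 0.22, edgeR). Without 1 pool, these were -0.20 for Iapp (NON AM 7/8 of T2), -0.14 for Ins1 (NON AM 2/7 of T1) and -0.23 for Ins2 (HOM PM 1/5 of T3). The 5 HOM pools of the T2 right cortex are homozygous by title and genotype but are called hemizygous in 1 other label, so results on them rest on the first 2 labels. HOM minus HEM at T2 gave 1.16% for all genes and 0 of 12 results here, 1 of them, Iapp in the right cortex, at an unadjusted p under 0.05 in both edgeR and DESeq2. That difference was 0.63 ± 0.25 (edgeR adjusted p = 0.231), and the smallest adjusted p of the others were 0.636 for Ins1 in the left cortex (-0.36 ± 0.34, edgeR) and 0.428 for Ins2 in the right cortex (0.49 ± 0.25, edgeR). Both right cortex differences were called without HEM AM pool 4/6, at 0.95 for Iapp (edgeR adjusted p = 0.0375) and 1.12 for Ins2 (edgeR adjusted p = 0.0318), and that of Iapp also without HOM AM pool 5 (0.92, edgeR adjusted p = 0.0262), while Iapp was 0.19 without HOM AM pool 1/3, Ins2 0.25 without HEM AM pool 9 and Ins1 -0.22 without HOM PM pool 6/9 and -0.60 without HOM PM pool 7/10. The genotype effect at T2 PM minus that at AM had its smallest adjusted p at 0.811 for Iapp (midbrain of HEM, -1.71 ± 0.87, edgeR), 0.475 for Ins1 (right cortex of HEM, 1.40 ± 0.70, edgeR) and 0.583 for Ins2 (right cortex of HEM, 0.81 ± 0.47, edgeR). Without HEM AM pool 4/6 the right cortex values were 4.06 for Ins1 and 2.06 for Ins2. Without the other HEM AM pool, 9, they were 0.75 and 0.33. Both HEM AM pools were under background there, at 1 to 19 counts of Ins1 and 3 to 18 of Ins2. Over all T2 right cortex pools, Iapp was above background in 3, Ins1 in 1 and Ins2 in 0 of 17. The HOM minus HEM values of that region thus also rest on counts near background.

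**Figure D4:**
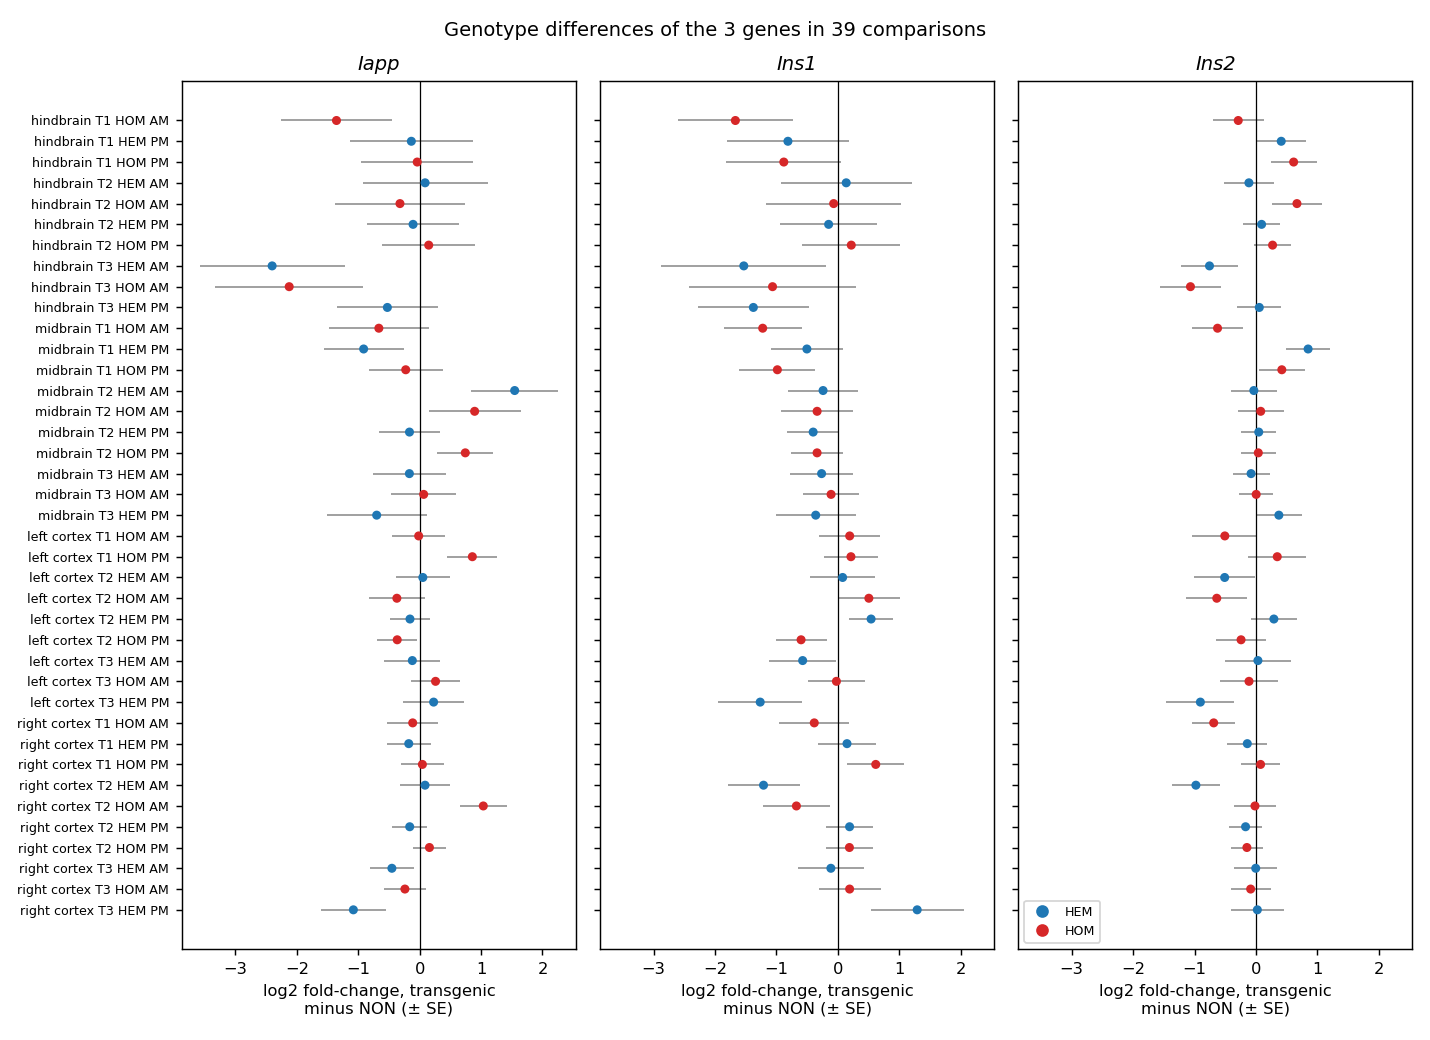
Log2 fold-change of HEM (blue) and HOM (red) minus NON in 39 comparisons (rows) for Iapp, Ins1 and Ins2, as points with bars of 1 SE. Points fall on both sides of 0, and for Iapp and Ins1 the widest bars are in the hindbrain, where the lowest Iapp value is -2.40.

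In the T1 hindbrain, Ins1 had a mean of 61.8 ± 14.9 normalised counts in HOM AM (n = 2) and 198 ± 260 in NON AM (n = 2), the second made of 382 in pool 2/7 and 14.7 in pool 8/9. The log2 fold-change was -1.67 ± 0.93 (edgeR adjusted p = 0.891), and 2.06 when pool 2/7 was left out. In the PM pools Ins1 had 23.0 ± 0.799 in HEM (n = 2), 22.4 ± 15.8 in HOM (n = 2) and 39.1 ± 49.2 in NON (n = 3), whose pools stood at 3.38, 18.7 and 95.3. The differences were -0.81 ± 0.99 for HEM (edgeR adjusted p = 0.889) and -0.88 ± 0.94 for HOM (edgeR adjusted p = 0.950), and both turned positive without NON PM pool 6. The sign of all 3 differences thus rested on 1 NON pool each.

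Ins1 in the T1 midbrain was under background in all 4 HOM pools, at 9, 9, 15 and 17 counts, and above it in 3 of 5 NON pools, at 33, 50 and 55 counts, with 11 and 24 in the other two. The normalised count was 15.3 ± 3.38 in HOM AM against 36.3 ± 18.8 in NON AM (n = 2 each), a log2 fold-change of -1.22 ± 0.64 (edgeR adjusted p = 0.904), and 14.4 ± 4.38 in HOM PM (n = 2) against 28.2 ± 16.2 in NON PM (n = 3), a difference of -0.98 ± 0.62 (edgeR adjusted p = 0.396). The PM groups overlapped through NON PM pool 6 (11.5), and neither difference passed the test. The values were -0.56 without NON AM pool 8/9 and -0.52 without NON PM pool 1/3.

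Iapp in the T1 midbrain was 28.3 ± 14.3 in HEM PM (n = 2) and 51.5 ± 44.7 in NON PM (n = 3), and the log2 fold-change of -0.91 ± 0.65 (edgeR adjusted p = 0.337) became 0.025 without NON PM pool 4/5. At T2 AM the midbrain of HEM had 72 and 50 counts of Iapp, and that of NON 29 and 10, both under background. The normalised means were 54.7 ± 20.4 and 17.8 ± 7.73 (n = 2 each). The difference of 1.55 ± 0.71 did not pass the test (edgeR adjusted p = 0.224), but with a fit of the 2 groups alone it did (adjusted p = 0.0446). HOM AM pools had 50 and 20 counts, with a difference of 0.90 ± 0.75 (edgeR adjusted p = 0.980). At T2 PM, HOM had 63.7 ± 27.2 normalised counts (n = 3) and NON 38.0 ± 11.3 (n = 5), a difference of 0.74 ± 0.45 (edgeR adjusted p = 0.438), and HEM had 33.7 ± 12.0 (n = 3).

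In the right cortex at T2, 1 HOM AM pool, 1/3, had 60 counts of Iapp over a background of 36.5, and the other, pool 5, had 25 under 28.7. The NON AM pools had 13 and 30 counts, both under background. The log2 fold-change was 1.04 ± 0.38 (edgeR adjusted p = 0.447) and 0.16 without pool 1/3. It was called when NON AM pool 7/8 (1.84, edgeR adjusted p = 0.0271) or HOM AM pool 5 (1.60, edgeR adjusted p = 0.00995) was left out, so that a group was 1 pool. At PM the difference was 0.16 ± 0.28 (edgeR adjusted p = 0.818), with 1 of 3 HOM pools and 1 of 5 NON pools above background.

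Among genotype results of the 3 genes, the smallest adjusted p belonged to Ins2 in the T1 midbrain, where HEM PM had 42.7 ± 7.48 normalised counts (n = 2) and NON PM 23.4 ± 3.04 (n = 3), a log2 fold-change of 0.85 ± 0.36 (edgeR adjusted p = 0.119). The 3 HEM pools with no collection time had 33.5, 49.9 and 76.4, and the 5 NON pools ran from 19.9 to 33.5. HEM pool 3/4 and NON AM pool 2/7 both stood at 33.5. With all 5 HEM pools set against all 5 NON pools, a comparison added after these values were seen, the difference was 0.85 ± 0.25 (edgeR adjusted p = 0.0715, unadjusted p = 0.00166), and it was not called, like the other target genes of that region (0% called). The same comparison over all 4 regions called 1.74% of gene results and none of the 12 of these genes in edgeR, of which Ins2 in the midbrain was the one with an unadjusted p under 0.05. It gave -0.02 ± 0.70 for Ins1, 0.19 ± 0.69 for Iapp and 0.42 ± 0.29 for Ins2 in the hindbrain, where the NON AM pools enter it as well as the HEM pools without a labelled time. Ins2 had 0.33 ± 0.35 in left and -0.30 ± 0.24 in right cortex pools, and Iapp had -0.78 ± 0.48 in the midbrain. Raw counts of Ins2 were 21 to 46 in HEM and 19 to 35 in NON and overlapped, and the reference genes were lower in HEM (3154 to 5164) than in NON (5345 to 6384). HOM pools had 16.6 to 38.9. Mch in pool 5/6, which held the highest Ins2, had 13341 normalised counts, the lowest of all midbrain pools, against 23024 to 26633 in NON, and the other 4 HEM pools had 19010 to 36209. The part of reference gene level or dissection in the difference was not tested. Nearly the same adjusted p belonged to a difference in the other direction, Ins2 in the T3 hindbrain of HOM AM (-1.07 ± 0.49, edgeR adjusted p = 0.119). The NON AM pools of that comparison had 2 to 18 counts of Ins2, with 1 of 2 above background. The HOM AM pools had 1 to 17 counts, with 1 of 3 above background. NON AM pool 7 had a reference gene mean of only 267, and the lowest mean of the T3 hindbrain pools was 130.5. The part of low reference gene counts in this difference was not tested. For Iapp the smallest adjusted p was 0.154, in the T3 hindbrain of HEM AM (-2.40 ± 1.18). That value rested on NON AM pool 7, with 15 counts and a reference gene mean of 267, and became 0.39 without it. Without NON AM pool 4/11, which leaves pool 7 alone, it was -4.02 and was called (edgeR adjusted p = 0.00806). For Ins1 it was 0.285, in the T2 left cortex of HOM PM (-0.60 ± 0.41), a value that was -0.33 without HOM PM pool 6/9 and -1.09 without HOM PM pool 7/10.

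No difference between genotypes in the share of pools above background passed the test. In 24 two-sided Fisher's exact tests all adjusted p were 1, and the smallest unadjusted p was 0.152, for Iapp in the left cortex, where 4 of 15 HOM pools and 1 of 18 NON pools passed. Iapp in the hindbrain passed in 4 of 13 HOM, 7 of 15 HEM and 10 of 18 NON pools, and Ins2 in the midbrain in 12 of 15, 14 of 16 and 13 of 18.

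Age and hour of collection were compared in NON mice. Time differences were called for 29.9% of gene results and for 1 of 24 here. That was Ins1 in the hindbrain, with a log2 fold-change of -2.37 ± 0.63 from T1 to T2 (edgeR adjusted p = 0.0359), the one target gene called in that contrast (2.33%). It was -0.51 with an adjusted p of 0.851 without pool 2/7, and -1.48 with an adjusted p of 0.334 without NON PM pool 6. Leaving out any of 6 T2 pools (1/3, 7/8, 2/15, 4/13, 5/10 and 6/9) gave -2.15 to -2.63 with adjusted p above 0.05. The call was also lost with TMM scaling (-2.22, adjusted p = 0.0510) and with the negative probe mean subtracted (-3.07, adjusted p = 0.123). At T2 the 7 NON hindbrain pools had 10 to 24 counts of Ins1. Iapp had -1.48 ± 0.61 in the same contrast (edgeR adjusted p = 0.135), 0.26 without pool 2/7 and -1.97 without T1 AM pool 8/9. Ins2 had its smallest adjusted p in the hindbrain from T1 to T3 (0.57 ± 0.30, edgeR adjusted p = 0.0953), a difference that was 1.05 and called with TMM scaling (adjusted p = 0.00744) and -1.12 with the positive control probes as the scale. This Ins2 difference was 0.79 and called without T1 PM pool 6 (edgeR adjusted p = 0.0242). It was 0.84 without T1 AM pool 8/9 and 0.40 without T1 AM pool 2/7. PM minus AM differences were called for 4.65% of gene results and for 0 of 12 here by edgeR, 2 of them at an unadjusted p under 0.05 (Iapp and Ins2 in the hindbrain), and 1, Iapp in the hindbrain, by DESeq2 (-1.65, adjusted p = 0.0389). Iapp in the hindbrain had -1.43 ± 0.54 (edgeR adjusted p = 0.140), Ins1 -0.98 ± 0.59 (edgeR adjusted p = 0.362) and Ins2 -0.51 ± 0.23 (edgeR adjusted p = 0.192). The Iapp value was -0.20 without T1 AM pool 2/7 and -0.49 without T3 AM pool 7. It was called without T1 PM pool 6 (-2.07, edgeR adjusted p = 0.0167), T1 AM pool 8/9 (-1.69, edgeR adjusted p = 0.0141) or T3 AM pool 4/11 (-1.96, edgeR adjusted p = 0.00642).

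In the hindbrain and midbrain all 7 receptor genes (Insr, Calcr, its forms Calcr-1a and Calcr-1b, and Ramp1, Ramp2 and Ramp3) were above background in more pools than Iapp, Ins1 and Ins2, but in the cortices Calcr-1a passed in 2.08% of left and 2.04% of right cortex pools, the lowest share of all target genes. Insr had a median of 3109 normalised counts in hindbrain, 2880 in midbrain, 3109 in left and 3282 in right cortex pools, and Ramp3, which turns Calcr into an amylin receptor, had 679, 3067, 955 and 941. Calcr had a median of 321 in hindbrain and 845 in midbrain pools, but 20.5 and 22.6 in left and right cortex pools, and its log2 fold-change of NON midbrain minus cortices was 5.21 ± 0.12. Of the 6 amylin receptor genes, 4 were higher and 0 lower in midbrain than in the cortices (81.4% of all target genes were called there), and 3 were higher and 3 lower in hindbrain than in the cortices (83.7%). Across the 39 genotype comparisons, 5 of 234 results of the amylin receptor genes were higher and 1 was lower (2.56%, against 4.71% for all target genes), with the smallest adjusted p for Calcr in the T2 left cortex of HEM PM (2.42 ± 0.47, edgeR adjusted p = 0.000671). The left cortex pool with the most Calcr had 354 normalised counts, a level above the hindbrain median, and the part of dissection in this was not tested. For the 14 genes of the insulin receptor and its kinases, 38 of 546 results were higher and 0 lower (6.96%), and over all target genes too most calls were upward, with 74 higher and 5 lower. The smallest adjusted p among them belonged to Ptp1b, a phosphatase that acts on the insulin receptor, in the T3 hindbrain of HOM AM (0.51 ± 0.10, edgeR adjusted p = 0.000861). Insr itself was the leading gene in the T3 midbrain of HOM AM (0.23 ± 0.06, edgeR adjusted p = 0.00445), where 8 of the 14 were higher and 27.9% of all target genes were called. Of 6 hypothalamic neuropeptide and related genes, 0 of 234 results were higher and 3 lower (1.28%). In the models of all pools with a collection time, edgeR called no result of Iapp, Ins1 or Ins2 in any of these 39 genotype comparisons.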

How the data were processed

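RNA of 4 brain regions was counted with a custom nCounter probe set. The authors deposited raw counts per probe and pool, without background correction or normalisation, for 43 target genes, 3 reference genes, 6 positive and 8 negative control probes. Columns were mapped to groups by the labels, and no column was left unmapped. The total count over target genes was 3489 to 525264 per pool. No 2 of the 198 pairs of pools within a group were identical (lowest chi-square per degree of freedom 5.59). Within a region, separate pools were separate mice, 1 or 2 each.

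Counts were tested with edgeR 4.0.16 in R 4.3.3 (quasi-likelihood test, reference gene geometric mean as library size, prior count 0.125, Benjamini-Hochberg adjustment over 43 genes), 1 model per region over all pools with a collection time, and 1 model over NON pools for regions. The tests were also run on simulated counts with the same spread for all genes. That did not check them for genes as variable between pools as Iapp and Ins1 in the hindbrain. Log2 fold-changes are of counts that include background and so can understate differences of low genes. In hindbrain pools with few reference gene counts they can also overstate them, since background is scaled up there. The negative probe mean reached 113 normalised counts in NON and 140 in HOM hindbrain pools, against medians of 9.6 and 10.1. Detection was tested in Python 3.11.15 with SciPy 1.17.1, with figures by matplotlib 3.10.9.

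The genes, lists and tests were chosen with earlier results of these data known. Fold changes are given for calls, for comparisons in which the study names one of these genes, and for each gene's smallest adjusted p in each kind of comparison. Genes named as alike had one of the 3 highest Spearman rho, of at least 0.5. Alternatives used TMM, positive probes, fewer reference genes, background subtraction or removal of low genes, DESeq2 1.42.0, 2 groups, age-matched NON pools, blocks, and left out single pools or 5 pools with a reference gene mean under 25% of their region's median. Pool numbers at T1 and T2 mark the same mice in each region. Same-numbered NON pools deviated together between left and right cortex (median r = 0.40 over 12 pairs) and oppositely between hindbrain and midbrain (median r = -0.35). NanoStringDiff, the study's tool, was not used. Results on 1 reference gene are not reported here.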

Additional observations from a re-analysis of the deposited data

Results flagged for a closer look

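In groups of 4 to 10 pools, 33 sets of values were searched for a pool that stood apart by Dixon's criterion, which chance meets in about 1 in 20 groups, and 2 were found. Ins2 in the T3 left cortex of HEM AM pool 4/5 was high, at 23.5 normalised counts. In that group 0 of 4 pools were above background for Ins2, with raw counts of 3 to 10. Iapp in the T3 midbrain of HOM AM pool 10 was high, at 59.7 normalised counts.

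Because 12 HEM pools of T1 carry no labelled collection time, they were outside the 39 comparisons within a collection time. They entered the shares of pools above background, the medians, ranges and ranks over all pools, the descriptions of single pools, and the comparison over all T1 pools. Of their 36 values, 7 (19.4%) were both above background and above every T1 NON pool of the region, against 146 of 516 values (28.3%) over all target genes. Of these, 5 were of Ins2 in the deep regions, with normalised counts of 40.0 in pool 1/2 and 29.4 in pool 5/6 of the hindbrain and of 49.9 in pool 1/2, 33.5 in pool 3/4 and 76.4 in pool 5/6 of the midbrain. The remaining values were from pool 3/4 of the left cortex, at 22.6 normalised counts for Ins1 and 20.4 for Ins2. No difference of the genotype effect between AM and PM at T2 passed the test in edgeR or DESeq2 for these genes. Over all target genes edgeR called 0 of 344 such results. By edgeR 0 of 24 had an unadjusted p under 0.05, and 1 by DESeq2.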

How the results depend on the processing

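Counts near background limit these results, and 2 to 5 pools per group limit the genotype comparisons, so a p above the threshold does not show that groups were alike. Log2 fold-changes are given throughout. With positive control probes as the scale, values turned to 0.38 (Iapp) and 0.11 (Ins1) for midbrain minus hindbrain, -0.12 for Ins2 in hindbrain minus cortices, 0.13 for Ins1 in right minus left cortex, 0.58 for Iapp in the T3 hindbrain of HEM AM, 0.021 for Ins2 in the left cortex of HOM over all times and -1.12 for Ins2 in NON hindbrain from T1 to T3. Iapp in hindbrain minus cortices was then 0.16 and not called, and calls were 1 for genotype over all times and 9 for time. Without 5 pools of low reference genes, Iapp was 0.13 for midbrain minus hindbrain and 0.66 for hindbrain minus cortices (no call). Ins2 in midbrain minus hindbrain lost its call with TMM (0.049), without the third reference gene (0.25) and with the negative mean subtracted (0.59), which also gave -0.84 for Ins2 in right minus left cortex. TMM gave 2 time calls in place of 1, of which neither was the Ins1 call in the hindbrain (-2.22). DESeq2 called 1 genotype result per time and 1 collection result, and fits of 2 groups alone 1 genotype result. With background as the mean of the negative probes alone, 0 of 18 regional detection tests passed in place of 10. The cause was not tested for any of these. Removing genes not above background in 50% of the pools of a fit left Iapp in the midbrain and Ins2 in the hindbrain and midbrain, with 0 of 18 results called for each by edgeR (1, 2 and 1 at an unadjusted p under 0.05), and no regional contrast of these genes, and age-matched NON pools applied only to T2 PM, with 0 of 24 called by edgeR and 0 of 24 at an unadjusted p under 0.05.

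With T1 and T2 pools alone and no replicate block, midbrain minus hindbrain was 0.16 for Iapp and right minus left cortex 0.059 for Ins1. With the pool as a replicate block they were 0.29 and 0.026, and Iapp in hindbrain minus cortices was 0.66, no longer called. The block ended no other regional call of these genes, 6 of 12 against 7 of 12.

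Leaving out 1 pool at a time gave these ranges. Midbrain minus hindbrain ran from -0.57 to 0.40 for Iapp, -0.81 to 0.18 for Ins1 and 0.27 to 0.42 for Ins2, where the call was lost without hindbrain pools T1 AM 2/7 (0.27), T1 PM 4/5 (0.29) or T3 AM 4/11 (0.33) or midbrain pools T2 AM 1/3 (0.30) or T3 AM 10 (0.28). Ins1 was called there without hindbrain T1 AM pool 8/9 (-0.60) or T3 AM pool 4/11 (-0.81). Iapp in hindbrain minus cortices ran from 0.39 to 1.35. Among pools of 1 mouse, Iapp ran from -0.25 (without midbrain T3 AM 7) to 0.17 (without hindbrain T3 AM 7) for midbrain minus hindbrain and from 0.62 (without hindbrain T3 AM 7) to 1.03 (without hindbrain T3 PM 8) for hindbrain minus cortices. From T1 to T2 in NON hindbrain, Iapp ran from -1.97 to 0.26 and Ins1 from -2.85 to -0.51. PM minus AM for Ins1 in NON hindbrain ran from -1.57 to 0.30. For genotype, Iapp ran from -4.02 to 0.39 in the T3 hindbrain of HEM AM (-2.44 without HEM pool 12), -1.52 to 0.025 in the T1 midbrain of HEM PM and -0.12 to 0.35 in the T2 right cortex of HOM PM. Ins1 in the T1 hindbrain ran from -1.31 to 0.97 for HEM PM, -2.63 to 2.06 for HOM AM and -1.83 to 0.90 for HOM PM. Counts of calls ran from 0 to 2 for genotype per time, 0 to 1 over all times, 0 to 2 for HOM minus HEM, 0 to 4 for time, 0 to 1 for collection time and 0 to 2 for PM minus AM of the genotype effect. A lone pool left in a group was assumed to vary like the other groups. The calls of genotype that arose came without right cortex T2 HEM AM 4/6, NON AM 7/8 or HOM AM 5, or T3 hindbrain NON AM 4/11.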
